A study of Mus musculus with 6 samples.

Results

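The cornified envelope is the protein shell that replaces the plasma membrane of keratinocytes in the outermost layer of the epidermis. The 8 genes described here encode proteins that build or crosslink it, and p65 (RelA, a DNA-binding subunit of NF-κB) was mapped around them by chromatin immunoprecipitation followed by sequencing (ChIP–seq) in mouse epidermal cells. They were chosen by function, with no threshold on a measured value, but with earlier results of these data known. The study itself singled out Evpl from these libraries. They are 8 of 21000 protein-coding genes in the curated RefSeq annotation of mm10. A peak was given to a gene when its midpoint lay nearest to a transcription start of that gene. By this rule the genes had 13 peaks over the 3 conditions, at 8 separate sites.

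Envoplakin (Evpl) and periplakin (Ppl) are plakins that form a scaffold under the membrane, anchored to desmosomes and keratin filaments, on which the envelope is assembled. The transglutaminases encoded by Tgm1, Tgm3 and Tgm5 then join envelope proteins by covalent bonds between glutamine and lysine residues. Annexin A1 (Anxa1) is a membrane-binding protein found among the crosslinked components, cornifelin (Cnfn) is a small envelope component, and caspase-14 (Casp14) is a protease of the cornifying layers that takes part in filaggrin breakdown.

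All mice were C57bl/6J. Adult mice, 17 to 25 weeks old per the methods, were untreated. Aged mice were injected intraperitoneally for 12 weeks from 73 weeks of age, either with a control IgG (aged/IgG control, here aged/IgG) or with blocking antibodies against IL-17A and IL-17F (aged/anti-IL-17A/F, here aged/blocked), so that untreated aged mice and antibody-treated adult mice are not among the groups. The cells were a trypsin-released suspension of the whole epidermis, and the reads of 4 mice were merged in each condition, which gives 1 peak list per condition and no spread between mice. No test between conditions was therefore made, and every difference below is between 3 pooled libraries. A gene without a peak is one where the caller listed none, which is not a measurement of 0 binding. The lists held 8525 peaks in adult, 4169 in aged/IgG and 6014 in aged/blocked epidermis, and the number of reads behind a single peak is unknown. The peak names inside the adult list begin with “Treated”, as those of the aged/blocked list do, although the adult mice were untreated, whereas names in the aged/IgG list begin with “Control”. Each list was taken by its label, and every adult value rests on that label. The adult and aged/blocked lists are not copies of each other, with 0 peaks of identical ends, but this does not show which mice the adult list came from. Expression was not measured in these lists, so the epidermal label was not checked against marker genes.

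The stretches of DNA under the peaks are given first, from the plus strand of mm10 in the RefSeq assembly, because the description of the sites turns on them. Capitals mark matches to 3 motifs searched on both strands in the called peaks. The first is the degenerate κB consensus of 10 bases bound by NF-κB dimers. The second is TGANTCA, bound by AP-1 factors such as Fos and Jun, and the third is ACCNGTT, bound by grainyhead-like factors of surface epithelia. A match is a run of letters and not a measured site of contact.

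Both windows with κB matches close to the summit, the position of highest enrichment, are at transglutaminase genes. In the first, 2 κB matches overlap on opposite strands. In the second, 3 κB matches, 2 of them overlapping, stand with 1 AP-1 match.
Tgm1 last intron, chr14:55702750-55702950: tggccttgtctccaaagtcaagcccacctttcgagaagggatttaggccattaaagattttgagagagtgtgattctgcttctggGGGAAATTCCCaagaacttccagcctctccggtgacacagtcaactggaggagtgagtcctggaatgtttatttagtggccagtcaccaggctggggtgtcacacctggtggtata
Tgm3 exon 7 and the start of the next intron, chr2:130029901-130030061: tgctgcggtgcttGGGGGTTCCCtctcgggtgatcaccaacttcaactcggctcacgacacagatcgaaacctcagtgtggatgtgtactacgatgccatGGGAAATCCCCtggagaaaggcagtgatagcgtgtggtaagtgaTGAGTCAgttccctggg

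The window upstream of Tgm3 is shown for an AP-1 match beside the summit, and those of Ppl for matches that lie away from the summit.
Tgm3 upstream, chr2:129999937-130000097: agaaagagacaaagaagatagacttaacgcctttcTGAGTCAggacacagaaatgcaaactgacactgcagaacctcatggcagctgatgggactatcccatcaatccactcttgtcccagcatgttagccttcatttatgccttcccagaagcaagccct
Ppl upstream, chr16:5136789-5136852: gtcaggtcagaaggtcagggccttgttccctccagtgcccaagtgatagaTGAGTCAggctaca
Ppl intron 1, far site, chr16:5129956-5130022: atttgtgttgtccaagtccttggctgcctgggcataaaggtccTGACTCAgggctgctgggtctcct
Ppl intron 1, near site, chr16:5131539-5131607: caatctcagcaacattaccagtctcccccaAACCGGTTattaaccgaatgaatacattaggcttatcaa

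At the sites that follow, the sequence around the adult summit is shown because it holds none of the 3 motifs.
Tgm1 upstream, chr14:55714106-55714206: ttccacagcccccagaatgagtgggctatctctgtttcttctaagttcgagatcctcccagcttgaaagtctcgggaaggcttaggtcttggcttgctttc
Anxa1 start, chr19:20390701-20390791: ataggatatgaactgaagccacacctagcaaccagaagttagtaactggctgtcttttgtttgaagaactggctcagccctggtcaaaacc
Tgm5, beyond the 3′ end, chr2:121045896-121046016: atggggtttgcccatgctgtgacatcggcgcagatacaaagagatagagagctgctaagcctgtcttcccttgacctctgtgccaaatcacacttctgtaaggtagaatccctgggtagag

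In adult epidermis 5 of the 8 genes had a peak, Evpl, Ppl, Tgm1, Tgm3 and Anxa1, beside 23% of all protein-coding genes. In aged/IgG epidermis 1 of 8 had one, Tgm1, which at 12.5% was close to the 12.9% of all genes. In aged/blocked epidermis 4 of 8 had one, Evpl, Ppl, Tgm1 and Tgm3, beside 17.4% of all genes. Tgm5, Casp14 and Cnfn had no peak by nearest start in any list. The lists differ in length, and with the 4169 peaks of lowest q in each, the genes with a peak were 3 in adult (Ppl, Tgm1 and Tgm3), 1 in aged/IgG (Tgm1) and 1 in aged/blocked epidermis (Tgm3). At that length 13.1%, 12.9% and 13% of all protein-coding genes had a peak.

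**Figure D1:**
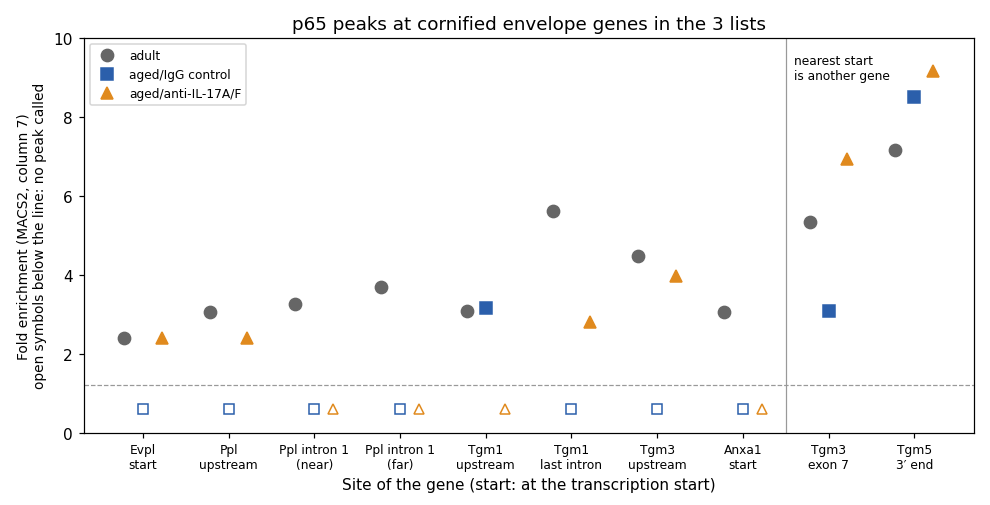
Fold enrichment of the peak called in each condition (vertical axis, ratio to the local background as MACS2 gives it, 1 pooled library per condition) at the 8 sites of the genes and, right of the vertical line, at 2 sites inside or beside Tgm3 and Tgm5 whose nearest start belongs to another gene; open symbols under the dashed line mark lists with no peak there. At 7 of the 8 sites the aged/IgG has an open symbol, while both sites on the right have a peak in every list.

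The scaffold genes had 4 sites, all without a peak in aged/IgG epidermis. Evpl (chromosome 11, 116220559 to 116238165, minus strand) was covered at its transcription start. The adult peak, 116237919 to 116238347, had a fold enrichment of 2.39, which is the ratio of ChIP signal to the local background, and ranked 8221 of the 8525 adult peaks, at percentile 3.58, the percentile being the share of the peaks of a list that stood lower. The aged/blocked peak, 116238063 to 116238364, had a fold enrichment of 2.39 and ranked 5838 of 6014, at percentile 2.91. The Evpl peaks thus stood near the bottom of both lists, with −log10 q of 5.23 and 4.65 (q is the false discovery rate that MACS2 gives each peak, and a higher −log10 q is a firmer call). They overlapped by 285 bp, with summits 47 bp apart, and the nearest aged/IgG peak lay 104776 bp away at Trim65.

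The sequence at the start of Evpl was rich in G and C, at 70.4% in the adult peak against a median of 53.8% over adult peaks. Its κB match lay 270 bp from the adult summit and outside the aged/blocked peak, which held none. Further from Evpl, an adult peak lay 18139 bp upstream, in intron 8 of Srp68, with a fold enrichment of 3.09 and an AP-1 match. The aged/IgG list had no peak within 50 kb of Evpl.

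Ppl (chromosome 16, 5086291 to 5132481, minus strand) had the most sites, 3 in adult epidermis. The upstream site, 4134 bp before the start, was the one also called in aged/blocked epidermis. There the adult peak, 5136379 to 5136852, had a fold enrichment of 3.06 (−log10 q of 12.7, percentile 28.1) and the aged/blocked peak, 5136477 to 5136879, one of 2.40 (−log10 q of 5.54, percentile 3.02). They overlapped by 376 bp, with the summits 137 bp apart. The AP-1 match in both lay 243 bp from the adult summit and 106 bp from the aged/blocked summit, so that the latter was the closer.

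The other Ppl sites were in intron 1 of 21 and were called in adult epidermis only. The near site, 5131524 to 5131835, 802 bp inside the gene, had a fold enrichment of 3.26 (−log10 q of 9.98, percentile 37.7) and 2 overlapping grainyhead matches 114 and 115 bp from the summit. The far site, 5129685 to 5130022, 2628 bp inside, had a fold enrichment of 3.68 (−log10 q of 15.0, percentile 53.0) and an AP-1 match 146 bp from the summit. The strongest adult peak of Ppl was thus one without a counterpart in either aged list. The nearest aged/blocked peak to these sites was the upstream peak of Ppl, 4642 and 6455 bp away, and in aged/IgG it was at Cdip1, 341117 and 339278 bp away.

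Among the crosslinking enzymes, Tgm1 (chromosome 14, 55700009 to 55713921, minus strand) was the one gene of the 8 with a peak in all 3 lists. No single site of it was in all of them, however. Upstream of the gene a peak was called in adult and aged/IgG epidermis, and in the last intron, 14 of 14, in adult and aged/blocked epidermis. The upstream adult peak, 55713992 to 55714403, lay 705 bp before the nearer of both curated starts and had a fold enrichment of 3.07 (−log10 q of 11.1, percentile 29.5). The aged/IgG peak, 55713854 to 55714403, contained it whole, with a fold enrichment of 3.15 (−log10 q of 8.51, percentile 24.8) and a summit 16 bp away. This was the only peak of the 8 genes in aged/IgG epidermis. Neither peak held a κB or AP-1 match, and the wider aged/IgG peak took in 1 grainyhead match 246 bp from its summit.

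The last-intron site of Tgm1 was the strongest of the 8 in adult epidermis. The adult peak, 55702622 to 55703095, had a fold enrichment of 5.62 (−log10 q of 31.4) and ranked 1544 of 8525, at percentile 81.9. The aged/blocked peak, 55702630 to 55702985, lay within it, with a fold enrichment of 2.79 (−log10 q of 6.70), and ranked 5125 of 6014, at percentile 14.7. The site thus stood high in the adult list and low in the aged/blocked list. The overlapping κB matches, 55702835 to 55702845, lay 10 bp from the adult summit and 62 and 64 bp from the aged/blocked summit. In the aged/IgG list the nearest peak was the upstream peak of Tgm1, 10759 bp away. Decile 9 of adult fold enrichment, which held this peak, spans values between 5.38 and 7.14, and of its 853 peaks 56 (6.57%) had no aged/IgG peak and 48 (5.63%) had an aged/blocked peak but none in aged/IgG.

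Tgm3 (chromosome 2, 129987794 to 130050399, plus strand, curated start at 130012340) had an upstream site that stood above the median of both lists in which it was called. The adult peak, 129999782 to 130000311, lay 12294 bp before the curated start, in an intron of a predicted longer transcript, and had a fold enrichment of 4.48 (−log10 q of 19.7, percentile 69.9). The aged/blocked peak, 129999771 to 130000287, had a fold enrichment of 3.96 (−log10 q of 16.5, percentile 57.7). It was the strongest peak of the 8 genes in that list, and the only one with a −log10 q above 10. The peaks overlapped by 506 bp with summits 41 bp apart. Their AP-1 match, 129999972 to 129999978, lay 62 bp from the adult summit and 21 bp from the aged/blocked summit. With predicted transcripts counted as starts, both peaks went to the predicted non-coding gene Gm52561 and Tgm3 had none.

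A second site lay inside Tgm3, in exon 7 of 13, but its nearest curated start was that of Mir6339. It had a peak in all 3 lists. In adult epidermis the peak, 130029783 to 130030193, 17648 bp from the Tgm3 start, had a fold enrichment of 5.34 (−log10 q of 34.3, percentile 79.7). In aged/IgG epidermis, 130029647 to 130030209, the fold enrichment was 3.09 (−log10 q of 11.5, percentile 22.1). In aged/blocked epidermis, 130029669 to 130030223, it was 6.94 (−log10 q of 47.3, percentile 89.5). The exon 7 site therefore stood high in the adult and aged/blocked lists and low in the aged/IgG list. The pair of overlapping κB matches at 130030001 to 130030011 lay 14 and 16 bp from the adult summit, 12 and 14 bp from the aged/IgG summit and 40 bp from the aged/blocked summit. When microRNA and other non-coding starts were left out, this peak went to Tgm3, and the genes with a peak in aged/IgG epidermis went from 1 to 2.

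Tgm5 (chromosome 2, 121046111 to 121085841, minus strand) had no peak by nearest start. A peak whose nearest start was that of Epb42 (erythrocyte membrane protein band 4.2, a relative of the transglutaminases without their activity) overlapped the 3′ end of Tgm5 by 108, 84 and 85 bases in adult, aged/IgG and aged/blocked epidermis, with its summit beyond the gene. Its fold enrichment was 7.16 in adult (121045645 to 121046218, percentile 90.1), 8.51 in aged/IgG (121045710 to 121046194, percentile 95.0) and 9.16 in aged/blocked epidermis (121045632 to 121046195, percentile 95.7). This was the strongest site within 50 kb of any of the 8 genes in every list, it lay 39910 bp from the Tgm5 start, and it held no κB and no AP-1 match.

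Anxa1 (chromosome 19, 20373434 to 20390671, minus strand) had a peak at its start in adult epidermis only, 20390533 to 20390862, with a fold enrichment of 3.05 (−log10 q of 7.38, percentile 27.8). It held none of the 3 motifs. A further adult peak, 19648 bp upstream in an intron of 1500015L24Rik, had a fold enrichment of 2.93. In the aged lists the nearest peak lay 145726 bp away in aged/blocked and 715394 bp away in aged/IgG. Anxa1 was the gene with an adult peak and none in either aged list.

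Casp14 (chromosome 10, 78711995 to 78718347, minus strand) had no peak within 50 kb in any list, and its nearest peaks lay 288901, 288911 and 288910 bp from the start in adult, aged/IgG and aged/blocked epidermis. Cnfn (chromosome 7, 25367616 to 25369724, minus strand) had no peak by nearest start, and in adult and aged/blocked epidermis its nearest peaks lay 93771 and 119310 bp away.

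**Figure D2:**
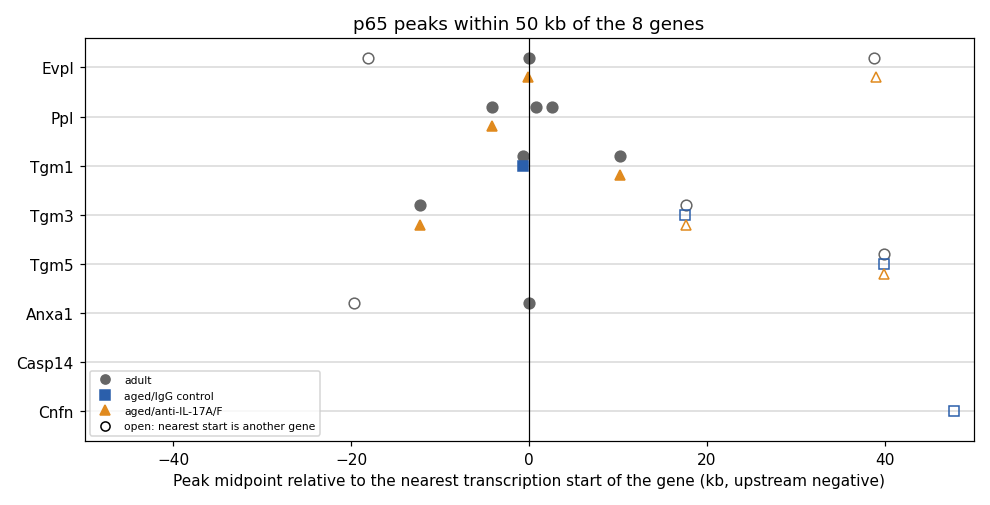
Midpoints of all p65 peaks within 50 kb of the 8 genes (horizontal axis, distance from the nearest start of the gene in kb, upstream negative), 1 row per gene; circles are adult, squares aged/IgG and triangles aged/blocked epidermis, filled where the gene has the nearest start and open where another gene has it. The 13 adult, 4 aged/IgG and 7 aged/blocked peaks are shown, and Casp14 has none.

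With any peak within 50 kb of a start counted, whatever gene was nearest, 6 of the 8 genes had one in adult, 4 in aged/IgG and 5 in aged/blocked epidermis, beside 43.4%, 27.5% and 35% of all protein-coding genes. The 3 genes that this wider window added to Tgm1 in aged/IgG epidermis were Tgm3, Tgm5 and Cnfn, of which Cnfn had no peak within the window in the other lists. Evpl, Ppl and Anxa1 still had no peak in that list.

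The question asked of these libraries was how p65 occupancy in aged epidermis differs from that in adult epidermis and whether blocking IL-17A and IL-17F changes it. Of the 8 adult peaks at the genes, 1 overlapped an aged/IgG peak, the one upstream of Tgm1, beside 45.5% of all adult peaks. An aged/blocked peak overlapped 4, beside 60.4% of all adult peaks. Evpl at its start, Ppl upstream, Tgm1 in its last intron and Tgm3 upstream were shared with aged/blocked and not with aged/IgG, a pattern of 19.3% of all adult peaks. Both intronic Ppl sites and the Anxa1 start were in neither aged list, like 35.2% of all adult peaks. No site of the 8 was in all 3 lists, where 41.1% of all adult peaks were, and the Tgm1 upstream site alone was shared with aged/IgG only, as 4.42% were.

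Counted by gene, 1 of the 5 genes with an adult peak had one in aged/IgG epidermis, beside 53.3% of the 4836 protein-coding genes with an adult peak. In aged/blocked epidermis it was 4 of 5, beside 68.1%. With 5 genes and 1 pooled library per condition these counts are a description. The gene that was missing in the second comparison was Anxa1, and the genes missing in the first were Evpl, Ppl, Tgm3 and Anxa1. Tgm3 counts as missing, here and at equal list lengths, because the aged/IgG peak in its exon 7 lay nearest to the start of Mir6339. With protein-coding starts alone Tgm3 had an aged/IgG peak. At equal list lengths Ppl and Tgm3 were the genes with an adult and no aged/IgG peak, a pattern of 2.64% of all protein-coding genes.

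Adult peaks weak by fold enrichment were found in the aged lists less often than strong ones, and most peaks of the 8 genes were weak for their list. Their median percentile of fold enrichment was 33.6 in adult, and 8.88 over the 4 peaks in aged/blocked, where the median of a whole list is at percentile 50. Ranked by q, the medians were 42.5 in adult and 9.92 in aged/blocked, so that the adult peaks stood higher by that value. The adult peaks were read against adult peaks of the same decile of fold enrichment, from 1 (weakest) to 10, and not of q. For the peak at the start of Evpl, in decile 1, 13.4% of like peaks had an aged/IgG peak and 26.8% an aged/blocked peak. For the Anxa1 start, the Ppl upstream and the Tgm1 upstream peaks, in decile 3, the shares were 17.5% and 34.2%. For Ppl in intron 1 they were 23% and 40.6% at the near site and 37% and 58.2% at the far site. For the upstream site of Tgm3 they were 54.9% and 75.3%, and for the last intron of Tgm1, in decile 9, 93.4% and 98.1%.

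Summed over the 8 adult peaks, these shares came to 2.74 peaks in aged/IgG, where 1 was found, and to 4.02 in aged/blocked, where 4 were found. Each peak of Evpl, Ppl and Anxa1 was in a decile where most adult peaks had no aged/IgG peak. The share without one ran from 86.6% for Evpl to 63% for the far site of Ppl. These shares are per peak and not per gene. At equal list lengths Ppl still had an adult and no aged/IgG peak, as had 2.64% of all protein-coding genes. The last-intron peak of Tgm1 was missing where few of its strength were, and the upstream peak of Tgm3 where 45.1% of its strength were. The cause of the absence was not tested at any site.

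**Figure D3:**
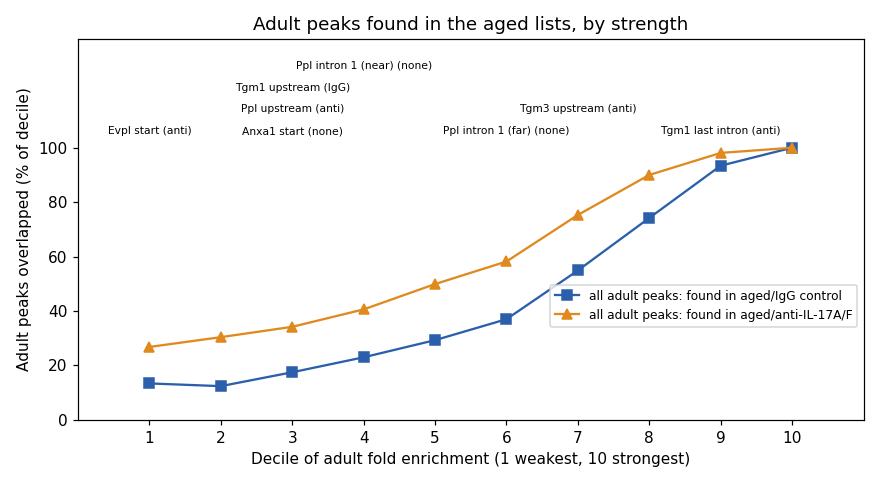
Share of all adult peaks that overlap a peak of each aged list (vertical axis, percent) by decile of adult fold enrichment (horizontal axis, 1 weakest to 10 strongest); squares are aged/IgG and triangles aged/blocked epidermis. The names above place the 8 adult peaks of the genes in their decile, with the aged list in which each was found in brackets, and the Tgm1 last-intron peak stands where 93.4% of adult peaks were found in aged/IgG.

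**Figure D4:**
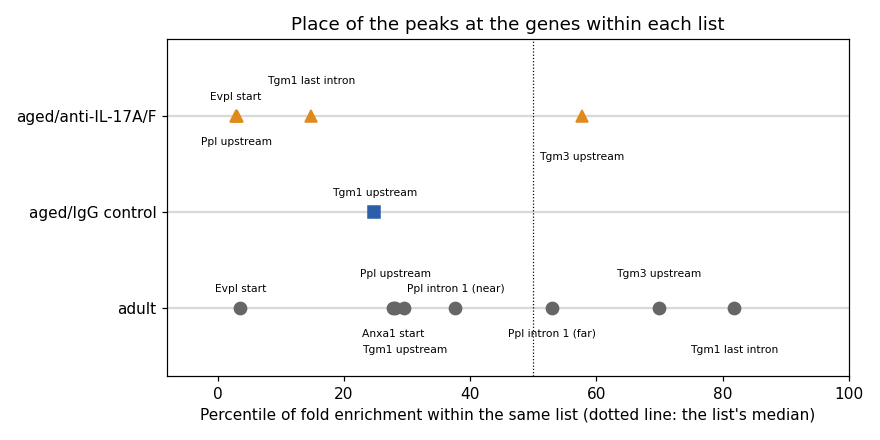
Percentile of fold enrichment (horizontal axis, 0 weakest to 100 strongest) of each peak of the genes among all peaks of its own list, 1 row per condition, with each list's median as the dotted line. In adult, 3 of the 8 peaks are right of the median, in aged/blocked 1 of 4, and in aged/IgG 0 of 1.

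Matches to the κB consensus were found in 2 of the 8 adult peaks, at Evpl and in the last intron of Tgm1, beside 34.9% of all adult peaks. In aged/IgG 0 of 1 had one, beside 44.7%, and in aged/blocked 1 of 4, the Tgm1 intron, beside 41.9%. AP-1 matches were in 3 of 8 adult peaks, Ppl upstream, Ppl far in intron 1 and Tgm3 upstream, beside 22.9%. They were in 2 of 4 aged/blocked peaks, Ppl and Tgm3 upstream, beside 24.8%, and in 0 of 1 aged/IgG peaks, beside 23.8%. A grainyhead match was in 1 of 8 adult peaks, the near site of Ppl, beside 18.8%. With the loosest κB pattern, GGG, any 5 bases and CC, which contains the consensus, 7 of 8 adult peaks matched, beside 83.3% of all adult peaks. The one without was the far intronic site of Ppl.

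**Figure D5:**
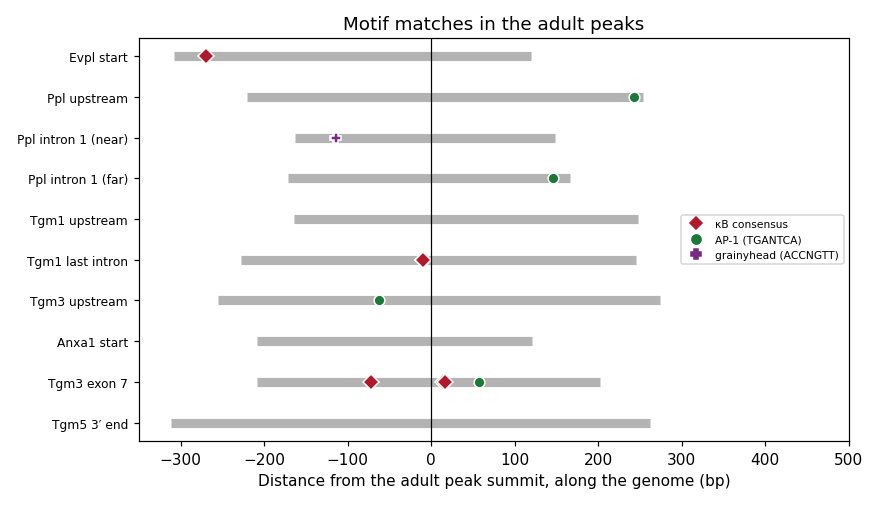
Positions of motif matches in the adult peaks at the 8 sites and at Tgm3 exon 7 and the Tgm5 3′ end (horizontal axis, distance from the adult summit in bp along the genome); grey bars are the called peaks, diamonds κB consensus, circles AP-1 and crosses grainyhead matches. κB matches lie next to the summit in the last intron of Tgm1 (10 bp) and in exon 7 of Tgm3 (14 bp), and 270 bp from it at Evpl.

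In the RefSeq promoter table, which spans 250 bases before to 50 after each start, 6 of the 8 genes had 7 promoters. None of the 7 held a κB or AP-1 match, which 4.51% and 7.81% of 32851 promoters did. The Tgm5 promoter held a grainyhead match, as did 8.13% of promoters. Evpl and Ppl were not in the table.

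Of 35 further genes of envelope formation and cornification, 14 had a peak by nearest start in adult (40%), 10 in aged/IgG (28.6%) and 15 in aged/blocked epidermis (42.9%), beside 23%, 12.9% and 17.4% of all protein-coding genes. With the 4169 peaks of lowest q in each list the order of adult and aged/IgG turned round, with 9 in adult, 10 in aged/IgG and 10 in aged/blocked epidermis. The transglutaminase genes Tgm2, Tgm4, Tgm6 and Tgm7 were among those without one in any list. All 10 genes with an aged/IgG peak also had one in both other lists, as had Tgm1, the one gene of the 8 with an aged/IgG peak, beside 88.2% of all protein-coding genes with an aged/IgG peak. The 5 genes with the highest fold enrichment in any list are given here, by the strongest peak of the gene in each list. Most had several peaks, such as Asprv1 with 6 in adult, 2 in aged/IgG and 2 in aged/blocked epidermis. The values of a gene can therefore come from different sites, and are not a change at 1 site. Anxa2, the partner of S100a10 in a membrane-binding complex, had fold enrichments of 6.14 in adult, 2.92 in aged/IgG and 4.87 in aged/blocked epidermis. The filaggrin-processing protease gene Asprv1 had 6.07, 3.77 and 3.43. Alox12b, a lipoxygenase needed for the lipid envelope, had 5.57, 2.10 and 4.14. Spink5, a serine protease inhibitor, had 5.30, 3.98 and 4.38, and the envelope precursor Sprr1a had 5.21, 4.36 and 5.35.

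Of the list, 4 genes had a peak in adult and none in aged/IgG epidermis (11.4%, beside 10.7% of all protein-coding genes), and 0 the reverse (beside 0.6%). At equal list lengths 0 had the first pattern (beside 2.64%) and 1, S100a11, the reverse (beside 2.39%). Desmoplakin (Dsp) is the plakin of desmosomes to which envoplakin and periplakin are linked. Its strongest peak had a fold enrichment of 3.14 in adult (1 peak) and 3.27 in aged/blocked epidermis (3 peaks). Cathepsin L (Ctsl), a lysosomal protease, had 3.72 and 2.81. Corneodesmosin (Cdsn), an adhesion protein of cornified cells, had 2.58 and S100a10 had 3.21 in adult, and neither had an aged/blocked peak. Ctsd, Dst and Rptn, named after their values were seen, had a peak in aged/blocked alone, beside 1.48% of all protein-coding genes. The pattern of Evpl, Ppl and Tgm3 by gene, adult and aged/blocked without aged/IgG, was that of 3 of the 8 genes, of 2 of the 35 others, Ctsl and Dsp, and of 4.31% of all protein-coding genes. With protein-coding starts alone Tgm3 left this pattern, since it then had an aged/IgG peak.

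Genes whose strongest peak had the most similar percentiles over the 3 lists, with absence set to 0, were found for each gene with a peak by the sum of absolute differences in percentile points. For Evpl they were Exoc3l4 (2.63 points), Il10rb (2.79) and Luc7l3 (2.83). For Ppl they were Zfp800 (1.29), Crebzf and Tinagl1 (both 3.23), and its values joined the far intronic site in adult and the upstream site in aged/blocked. For Tgm3 they were Gm6657 (0.477), Atg4c (1.39) and Ear1 (2.93). For Tgm1 the values joined both sites, the last intron in adult and aged/blocked and the upstream site in aged/IgG, and the most similar genes were Grk2 (6.56), Csnk2a1 (7.08) and Klf7 (10.5). For Anxa1 several genes tied at 0, of which Arrdc1, Chmp1b and Chst5 come first by name. The likeness is over 3 libraries only.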

How the data were processed

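p65 ChIP–seq of epidermal cells was deposited as 1 peak list for each of 3 conditions. The 3 input libraries were not analysed here. According to the submitters' processing notes and the methods, the authors trimmed reads with Trimmomatic 0.36, aligned them to mm10, merged the 4 mice of a condition, downsampled all pools to the same number of reads and ran MACS2 on each with a q-value limit of 0.01. Whether inputs entered the calling is not stated. Merging removes the spread between mice, and a peak near the threshold can be listed in one condition and not in another with little difference in signal. Deposited values per peak were an integer score (not used), the fold enrichment (a ratio), the −log10 of the p-value (not used) and the −log10 of the q-value, all made by the authors. Percentiles of fold enrichment were taken within a list. Its values are set side by side without a test, and were ranked across lists only to choose the 5 envelope list genes named.

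Peaks were assigned by midpoint to the nearest start of curated RefSeq transcripts (GRCm38.p6), and shared peaks overlapped by at least 1 bp. The lists give no read counts, so no intervals were computed. Motifs were searched in the reference sequence of each called peak. Python 3.11.15, pandas 2.3.3, numpy 2.4.6, pysam 0.24.0, matplotlib 3.10.9 and, as a check, bedtools 2.31.1 were used. Overlap, assignment and motif search were tested on simulated data. The genes, the further envelope list (36 symbols, of which 35 were in the annotation), the motifs and the alternatives were chosen with earlier results of these data known, and the study itself singled out Evpl from these libraries. The genes named were all 8, the list genes with a peak in exactly one of adult and aged/IgG, the 5 list genes of highest fold enrichment in any list, and up to 3 genes of most similar percentiles for each gene with a peak. Outside this rule, list genes with a peak in aged/blocked alone, S100a11, the other transglutaminase genes and genes near a peak were named after their values were seen. Some neighbouring loci and 1 sequence are not reported here. Alternatives were stricter q limits, equal list lengths, other rules of assignment and overlap, other motif definitions and a ranking by q.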

Additional observations from a re-analysis of the deposited data

How the results depend on the processing

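Of 72 alternative values for 17 results, 43 stayed within 1.5 times the main count or the same value and 29 moved. With a −log10 q of at least 10, peaks at the genes numbered 5 in adult, 0 in aged/IgG and 1 in aged/blocked (8, 1 and 4 otherwise), genes with a peak 3, 0 and 1 (5, 1 and 4 otherwise), and envelope list genes 6 in aged/IgG (10 otherwise). With equal numbers of peaks per list, peaks numbered 3 in adult and 1 in aged/blocked, genes with a peak 3 and 1, and envelope list genes 9 in adult (14 otherwise), below the 10 in aged/IgG. Protein-coding starts alone gave 2 peaks and 2 genes in aged/IgG. A limit of 10 kb left 2 peaks and 2 genes in aged/blocked. A window of 50 kb gave 13, 4 and 7 peaks, and 4 genes in aged/IgG. κB matches within 100 bp of the summit were in 1 adult peak (2 otherwise). Any base at the 2 middle positions gave 1 in aged/IgG (0 otherwise) and 2 in aged/blocked (1 otherwise), and the loosest pattern gave 7, 1 and 4. Ranked by q, the median percentile was 42.5 in adult (33.6 by fold enrichment), 22.1 in aged/IgG (24.8) and 9.92 in aged/blocked (8.88). Under every overlap rule 1 adult peak was shared with aged/IgG, and 3 or 4 with aged/blocked. No paired analysis was possible because each condition was 1 pooled library and no replicate could be left out. The pools were brought to an equal number of reads by the authors, but the reads behind a single peak were unknown, which limits every absence. Apart from the ranking by q, which orders the same peaks by another value, these settings change which peaks, starts or matches are counted.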
